A study of Mus musculus with 8 samples.

Results

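The 9 ETS family factors described here are Ets1, Ets2, Fli1, Erg, Spi1, Elf1, Elf4, Etv6 and Gabpa, chosen by name as ETS genes of blood cells, out of 22878 gene symbols in the deposited tables. Spi1, which encodes PU.1, is listed there under its older symbol Sfpi1 and was matched by its RefSeq identifier; the other 8 stand under their own symbols. ETS factors share a winged helix-turn-helix domain that binds DNA around a GGAA core, and members differ in the flanking bases they prefer, in their partners and in whether they activate or repress. In marrow, PU.1 drives myeloid fate and takes part in early lymphoid fate, FLI1 and ERG act in stem cells and megakaryocytes, and ETS1 is needed for natural killer cells and for innate lymphoid cells (ILCs), the lymphocytes without rearranged antigen receptors.

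Polyadenylated RNA was sequenced by Smart-seq2 from 4 progenitor populations of C57BL/6 mouse marrow, with 2 libraries each, to follow the step from CLP to ChILP and to find what marks each branch of the ChILP gate. PD-1+ cells, which the labels call non-LTi progenitors (LTi, lymphoid tissue inducer), were lineage-negative and carried CD127, integrin α4β7, c-Kit and PD-1 without Flt3, ST2 or CCR6. CCR6+ cells, labelled as LTi progenitors, carried the same markers but had CCR6 and lacked PD-1. Common helper-like innate lymphoid progenitors (ChILP) were sorted by that gate without division by PD-1 or CCR6. Common lymphoid progenitors (CLP) were lineage-negative with CD127, Flt3, Sca-1 and c-Kit and without integrin α4β7. No group carried a transgene, deletion or treatment in its labels. For PD-1+ and CCR6+ cells the marrow was first passed over magnetic columns that hold integrin α4β7-bearing cells (captured libraries), and for ChILP and CLP lineage-positive cells were first depleted (depleted libraries), so across these pairs of groups the population and the route of enrichment cannot be told apart.

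Each library held 7685188 to 13997897 reads on genes; 13619 genes passed the filter on low counts, all 9 ETS members among them. Separate mice are not stated for the 2 libraries of a group, so each p-value rests on a spread that may be technical. The gate genes followed the labels less closely in the number 2 libraries: Pdcd1 (PD-1) had 181 and 36.3 RPKM (reads per kilobase of transcript, scaled to the library total) in PD-1+ cells against 0 and 1.10 RPKM in CCR6+ cells, and Ccr6 had 0 and 8.11 RPKM in PD-1+ cells against 84.2 and 23.6 RPKM in CCR6+ cells. Markers of ILC progenitors summed to 206 to 1709 RPKM in the PD-1+, CCR6+ and ChILP libraries and to 38.8 and 41.4 RPKM in CLP. Transcripts of 9 mature neutrophil markers summed to 9716 to 20623 RPKM in the PD-1+ and CCR6+ libraries and to 799 to 5525 RPKM in the ChILP and CLP libraries, with no marker at 0 in any library. Markers of macrophages and monocytes summed to 7169 to 15801 RPKM and to 433 to 1407 RPKM in the same order. Erythroid markers summed to 27839 to 40110.6 RPKM in the PD-1+ and CCR6+ libraries and to 1057 to 6327 RPKM in the ChILP and CLP libraries, with none at 0, and their part in the comparisons across routes was not tested. The libraries are bulk RNA, so fewer cells with a transcript and less of it per cell cannot be told apart.

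Start regions were matched in RefSeq (build GRCm38.p6) for 6 of the 9 members, with 10 entries in all, each from 250 bases before to 50 bases after an annotated start. GGAA, or TTCC on the other strand, occurs in 96.0% of the 32851 start regions of that table, with a median of 3 matches, so its presence says little about a gene. The longer form CCGGAA, or TTCCGG on the other strand, contains the core and occurs in 14.9% of them. The lines below show the start regions of Erg, the member with the largest estimated changes, of Elf4, the member called in most comparisons, and of Gabpa, whose region holds the longer form. Capitals mark GGAA and TTCC.
Erg, chr16:95586544-95586843, minus strand: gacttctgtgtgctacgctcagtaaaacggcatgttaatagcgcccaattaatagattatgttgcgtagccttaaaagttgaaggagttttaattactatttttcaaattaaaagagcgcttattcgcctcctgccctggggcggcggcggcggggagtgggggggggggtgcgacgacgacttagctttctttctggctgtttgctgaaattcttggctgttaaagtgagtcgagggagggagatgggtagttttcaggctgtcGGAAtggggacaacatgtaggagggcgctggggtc
Elf4, chrX:48463083-48463382, minus strand: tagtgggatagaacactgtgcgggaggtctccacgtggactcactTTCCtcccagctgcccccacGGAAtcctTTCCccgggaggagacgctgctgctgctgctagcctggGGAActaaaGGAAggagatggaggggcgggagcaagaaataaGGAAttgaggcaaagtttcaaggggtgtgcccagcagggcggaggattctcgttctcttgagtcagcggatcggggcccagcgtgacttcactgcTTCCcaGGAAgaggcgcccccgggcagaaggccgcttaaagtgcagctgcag
Gabpa, chr16:84834874-84835173, plus strand: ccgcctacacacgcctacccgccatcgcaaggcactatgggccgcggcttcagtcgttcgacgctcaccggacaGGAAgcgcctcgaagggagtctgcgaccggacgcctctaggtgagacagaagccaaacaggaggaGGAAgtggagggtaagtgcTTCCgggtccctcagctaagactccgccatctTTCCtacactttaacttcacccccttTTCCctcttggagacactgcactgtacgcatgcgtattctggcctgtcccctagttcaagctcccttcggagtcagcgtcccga
The Erg region shown has 1 match to the core, the Elf4 region 8 and the Gabpa region 5, of which 1 lies in TTCCGG. The other 2 Erg entries hold 2 and 4 matches and the other Elf4 entry 2, so the counts depend on which start is taken. These matches describe the letters and are not binding sites.

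All 9 members had reads in every group. Spi1 had the highest RPKM of the 9 in all 8 libraries. Spi1 made up 56.1% and 75.5% of the summed RPKM of the 9 in PD-1+ cells, 76.5% and 81.6% in CCR6+ cells, 64.6% and 49.9% in ChILP and 58.5% and 57.4% in CLP. Fli1, Ets1 and Elf1 held the next places by mean RPKM in PD-1+ cells, CCR6+ cells and ChILP, in an order that differed between these groups. In CLP the order was Elf1 (49.2 RPKM), Fli1 (31.8), Etv6 (19.0) and Ets1 (18.5), and the Etv6 and Ets1 libraries overlapped. In ChILP the ranges of Elf1 (35.8 to 36.3 RPKM) and Fli1 (30.3 to 36.2 RPKM) overlapped, and so did those of Fli1 and Ets1 (27.0 to 30.7 RPKM). In PD-1+ cells the libraries of Ets1 (38.2 to 67.3 RPKM) and Fli1 (27.6 to 45.1 RPKM) overlapped as well. Within each PD-1+ library, though, Ets1 lay above Fli1 (1.49 and 1.38 times its RPKM). Within each ChILP library Ets1 lay below Fli1 (0.891 and 0.850 times its RPKM). Erg was the lowest member in PD-1+ cells, CCR6+ cells and ChILP, but not in CLP. The 9 members made up 80.7% to 89.1% of the summed RPKM of all ETS genes in the tables.

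**Figure D1:**
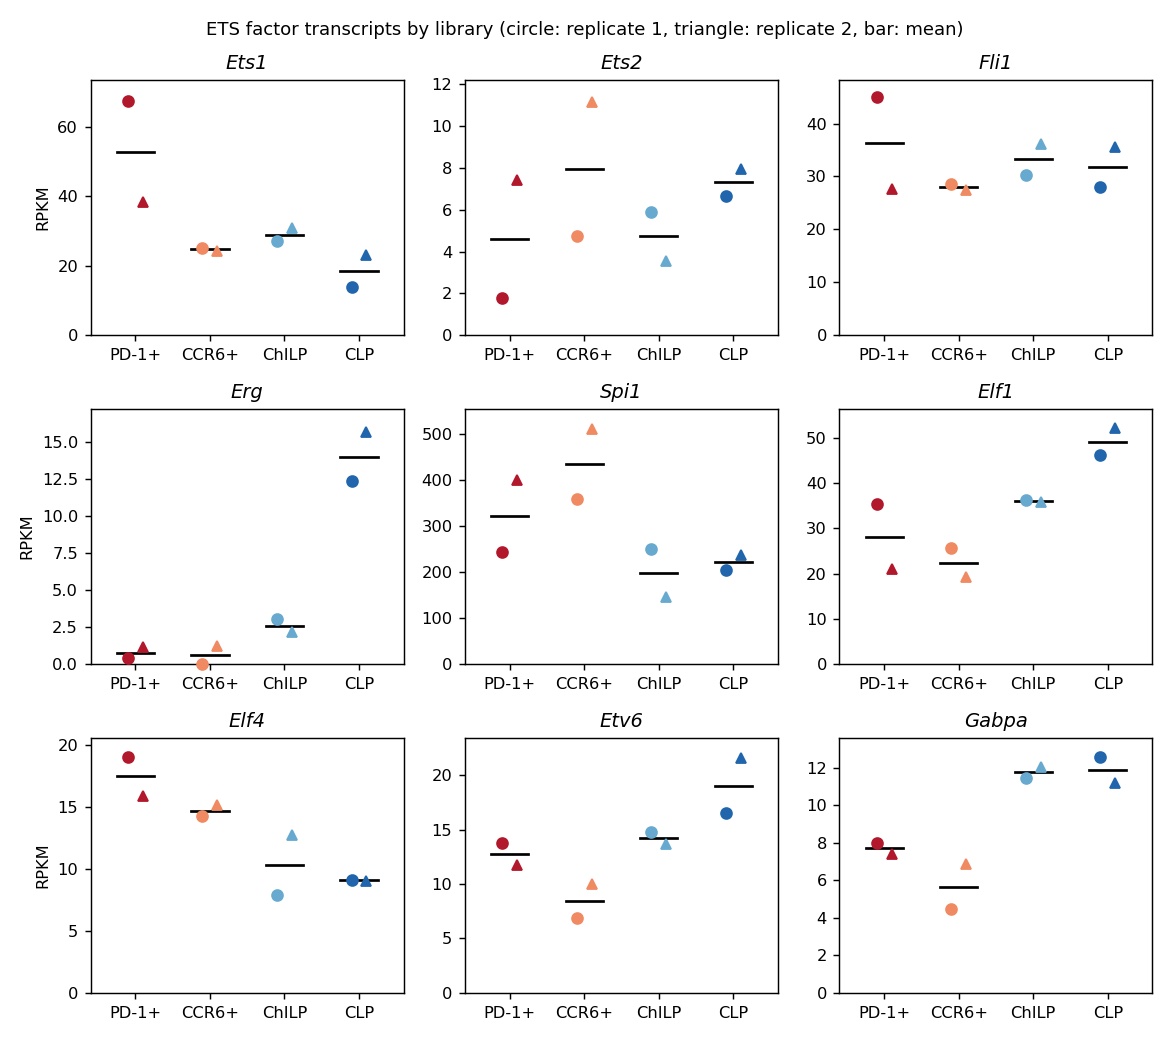
RPKM (vertical axes, each from 0) of the 9 ETS members in the 2 libraries of PD-1+, CCR6+, ChILP and CLP groups, with circles for replicate 1, triangles for replicate 2 and a bar at the mean. Ets1 is highest in the PD-1+ libraries (38.2 and 67.3 RPKM), Erg in the CLP libraries (12.4 and 15.6 RPKM), and Spi1 in the CCR6+ libraries by mean (434 RPKM).

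Ets1 (NM_011808) encodes the founding ETS factor of lymphocytes and was highest in PD-1+ cells. It had 67.3 and 38.2 RPKM in PD-1+ cells, 25.1 and 24.3 RPKM in CCR6+ cells, 27.0 and 30.7 RPKM in ChILP and 13.9 and 23.1 RPKM in CLP. Both PD-1+ libraries lay above the other 6, and both CLP libraries lay below the other 6. Against CLP, Ets1 rose in PD-1+ cells with a log2 fold change of 1.78 (SE 0.29, 95% interval 1.12 to 2.44), a mean of 52.7 ± 20.6 RPKM in PD-1+ cells and 18.5 ± 6.50 RPKM in CLP (SD, n = 2 each). Its adjusted p was 0.0162 in edgeR (quasi-likelihood test, Benjamini-Hochberg adjustment over all genes). The call was lost without CLP replicate 1 (adjusted p = 0.058) and without CLP replicate 2 (adjusted p = 0.0817), where the log2 fold change was 1.51 and 2.10, and with only the PD-1+ and CLP libraries in the fit (adjusted p = 0.0589). Without both number 2 captured libraries it held (log2 fold change 2.03, adjusted p = 0.032). Between PD-1+ and CCR6+ cells, which share the route of enrichment, the log2 fold change was 1.01 (SE 0.28, unadjusted p = 0.00703, adjusted p = 0.697 in edgeR), and between ChILP and CLP it was 0.71 (SE 0.28, unadjusted p = 0.0349, adjusted p = 0.803 in edgeR). In CCR6+ cells against CLP it was 0.77 (SE 0.28, adjusted p = 0.123 in edgeR and 0.0353 in DESeq2). The comparisons of PD-1+ with CCR6+ cells and of ChILP with CLP had in Ets1 the lowest unadjusted p-values of the 9 members, and neither passed over all genes. A shorter Ets1 transcript, NM_001038642, had 94.0% to 96.3% of the count of the longer one in each library. How reads that fit both were counted is not given, so isoforms cannot be told apart. T lineage markers summed to 117 and 78.3 RPKM in PD-1+ cells, 68.3 and 79.5 RPKM in CCR6+ cells, 53.1 and 69.5 RPKM in ChILP and 36.3 and 67.2 RPKM in CLP. The sum, like Ets1, was highest in PD-1+ replicate 1 and lowest in CLP replicate 1. Of the 6 markers 2, Cd3g and Cd4, were called higher in PD-1+ cells against CLP, with 4.47% of all genes called higher. Cd3e was at 0 in ChILP replicate 2 and CLP replicate 2, Cd3d and Cd8a at 0 in ChILP replicate 2, Cd3g at 0 in CLP replicate 2 and Cd8a at 0 in PD-1+ replicate 1. The part of these markers in the Ets1 level was not tested.

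Ets2 (NM_011809), the paralogue of Ets1 that responds to growth factor and Ras signalling, was low and uneven. It had 1.78 and 7.41 RPKM in PD-1+ cells, 4.76 and 11.2 RPKM in CCR6+ cells, 5.91 and 3.57 RPKM in ChILP and 6.68 and 7.94 RPKM in CLP. All 4 groups overlapped except ChILP and CLP, and no comparison reached an unadjusted p under 0.05. Its SE on the log2 scale was 0.62 to 0.70, against 0.20 to 0.35 for the members other than Erg, so that the 95% interval for PD-1+ against CLP ran from -1.95 to 1.25. The ratio of Ets1 to Ets2 RPKM was 37.8 and 5.15 in PD-1+ cells, 5.28 and 2.18 in CCR6+ cells, 4.57 and 8.61 in ChILP and 2.09 and 2.91 in CLP. The high ratio of PD-1+ replicate 1 goes with both the highest Ets1 and the lowest Ets2 level of the 8 libraries.

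Fli1 (NM_008026) and Erg (NM_133659) encode closely related factors of stem cells, megakaryocytes and endothelium, and they behaved differently here. Fli1 had 45.1 and 27.6 RPKM in PD-1+ cells, 28.7 and 27.4 RPKM in CCR6+ cells, 30.3 and 36.2 RPKM in ChILP and 28.0 and 35.6 RPKM in CLP. By RPKM its groups overlapped, except that both CCR6+ libraries were below both ChILP libraries. On that scale the median over all genes for PD-1+ and CCR6+ cells together against ChILP was -0.29. The edgeR log2 fold change of Fli1 in that comparison was 0.18. Log2 fold changes of Fli1 lay between 0.12 and 0.45 in the 5 comparisons, with no unadjusted p under 0.05 in edgeR; the interval for ChILP against CLP, -0.41 to 0.66, bounds the change that these libraries allow.

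Erg was the member with the largest estimated changes. It had 0.373 and 1.14 RPKM in PD-1+ cells (12 and 41 reads), 0 and 1.21 RPKM in CCR6+ cells (0 and 39 reads), 3.07 and 2.14 RPKM in ChILP (124 and 73 reads) and 12.4 and 15.6 RPKM in CLP (293 and 507 reads). Both CLP libraries lay above all others, both ChILP libraries lay between, and PD-1+ and CCR6+ cells overlapped. The 0 reads of CCR6+ replicate 1 allow a level of up to 0.127 RPKM at 3 reads, for counting error only. Mean Erg was 0.756 ± 0.542 RPKM in PD-1+ cells, 0.604 ± 0.855 RPKM in CCR6+ cells and 2.60 ± 0.658 RPKM in ChILP, against 14.0 ± 2.32 RPKM in CLP (SD, n = 2 each). In edgeR the log2 fold changes against CLP were -3.89 in PD-1+ cells (SE 1.35, adjusted p = 0.126), -4.16 in CCR6+ cells (SE 1.38, adjusted p = 0.0928) and -2.37 in ChILP (SE 1.26, adjusted p = 0.944), so none passed. DESeq2 called the difference from CLP in PD-1+ cells (adjusted p = 0.0149) and in CCR6+ cells (adjusted p = 0.00702), and limma on log2(RPKM + 1) called both as well (adjusted p = 0.00428 and 0.00234). In edgeR with only the PD-1+ and CLP libraries in the fit, Erg was not called (log2 fold change -3.89, adjusted p = 0.0573). With a replicate block it was not called in PD-1+ cells against CLP either (adjusted p = 0.127). Leaving out 1 library in turn, the log2 fold change of that comparison ran from -5.01 to -3.26. Of these fits, edgeR called Erg only in those without a CCR6+ library. Without both number 2 captured libraries the value was -5.06 and was also called. Such fits leave 1 library in a group. Without CCR6+ replicate 1 the log2 fold change in CCR6+ cells against CLP was -3.20 and not called (adjusted p = 0.105); without CCR6+ replicate 2 the library left has no Erg read, so the adjusted p of 0.0277 goes with a fitted value that is no estimate of the change. Markers of stem and multipotent progenitors, a class of cells that carries Erg, summed to 15.2 and 12.4 RPKM in PD-1+ cells, 12.1 and 14.0 RPKM in CCR6+ cells, 67.5 and 75.7 RPKM in ChILP and 114 and 196 RPKM in CLP, and their part in the Erg levels was not tested. Endothelial markers summed to 40.2 and 16.7 RPKM in PD-1+ cells, 19.6 and 15.7 RPKM in CCR6+ cells, 26.8 and 35.7 RPKM in ChILP and 33.6 and 44.4 RPKM in CLP.

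Within a library, a ratio of 2 genes does not depend on the scaling between libraries. Fli1 stood at 121 and 24.2 times the RPKM of Erg in PD-1+ cells, 22.7 times in CCR6+ replicate 2, 9.90 and 16.9 times in ChILP and 2.27 and 2.28 times in CLP. The ratio could not be formed in CCR6+ replicate 1, where Erg had no read. The ratio in both CLP libraries was thus below that in the 5 others.

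Spi1 (NM_011355) encodes PU.1, whose level helps set myeloid against lymphoid fate, and it was highest in CCR6+ cells by mean. It had 244 and 401 RPKM in PD-1+ cells, 358 and 510.5 RPKM in CCR6+ cells, 249 and 146 RPKM in ChILP and 205 and 237 RPKM in CLP. Both CCR6+ libraries lay above all ChILP and CLP libraries, while PD-1+ replicate 1 lay within the range of ChILP. The log2 fold change was 1.31 in CCR6+ cells against CLP (SE 0.35, edgeR adjusted p = 0.0522), 1.18 in PD-1+ and CCR6+ cells together against ChILP (SE 0.32, edgeR adjusted p = 0.0501) and 0.84 in PD-1+ cells against CLP (SE 0.35, edgeR adjusted p = 0.194). None passed in edgeR as fitted above, but the first and second lie at the threshold and passed in edgeR without a filter on low counts (adjusted p = 0.0325 and 0.0308), with a filter of 5 RPKM (0.0327 and 0.0307) and with DESeq2's size factors (0.0453 and 0.0429). Limma on log2(RPKM + 1) did not call the first (adjusted p = 0.0536) but called the second (0.0361). With a replicate block in edgeR neither passed (0.0781 and 0.0829). With only the compared groups in the edgeR fit the first passed (0.0197) and the second did not (0.0853). Leaving out 1 library in turn, the log2 fold changes ran from 1.04 to 1.53 and from 0.84 to 1.61. DESeq2 called both (9.06e-04 and 3.90e-04). Between groups of the same route the log2 fold change was -0.47 for PD-1+ against CCR6+ cells and -0.10 for ChILP against CLP, neither with an unadjusted p under 0.05. Spi1 is also expressed in mature myeloid cells, and the summed neutrophil markers stood at 9716 and 19823 RPKM in PD-1+ cells, 12090 and 20623 RPKM in CCR6+ cells, 5525 and 959 RPKM in ChILP and 4360 and 799 RPKM in CLP. In PD-1+, CCR6+ and ChILP groups the library with more Spi1 was also the one with more of these markers, in CLP the one with less, and the part of such cells in the Spi1 level was not tested. Markers of myeloid progenitors ran the other way between captured and depleted libraries. Their summed levels were 829.8 and 1584 RPKM in PD-1+ cells and 1244 and 1899 RPKM in CCR6+ cells. In ChILP they were 9929 and 8457 RPKM and in CLP 7079.8 and 7021 RPKM. Within each group, the 2 libraries stood in the same order as for the neutrophil markers. Of the 7 markers, 5 were called lower in PD-1+ cells against CLP, with 2.83% of all genes called lower. The 1 called higher stood beside 4.47% of all genes called higher. No myeloid progenitor marker was at 0, and their part in the Spi1 level was not tested either.

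Spib, the ETS relative of Spi1 used by B cells and plasmacytoid dendritic cells, was also higher by level in the captured libraries. It had 15.0 and 26.8 RPKM in PD-1+ cells, 31.9 and 28.7 RPKM in CCR6+ cells, 11.2 and 2.74 RPKM in ChILP and 10.5 and 2.18 RPKM in CLP. The captured libraries did not overlap the depleted ones. Its log2 fold changes were 1.98 for PD-1+ against CLP (SE 0.84), 2.55 for CCR6+ against CLP (SE 0.86) and 2.10 for PD-1+ and CCR6+ cells against ChILP (SE 0.78), with edgeR adjusted p of 0.2, 0.0966 and 0.119, so it was not called. B lineage markers summed to 233 and 275 RPKM in PD-1+ cells, 328 and 308 RPKM in CCR6+ cells, 67.3 and 27.8 RPKM in ChILP and 196 and 252 RPKM in CLP, and their part in the Spib level was not tested.

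**Figure D2:**
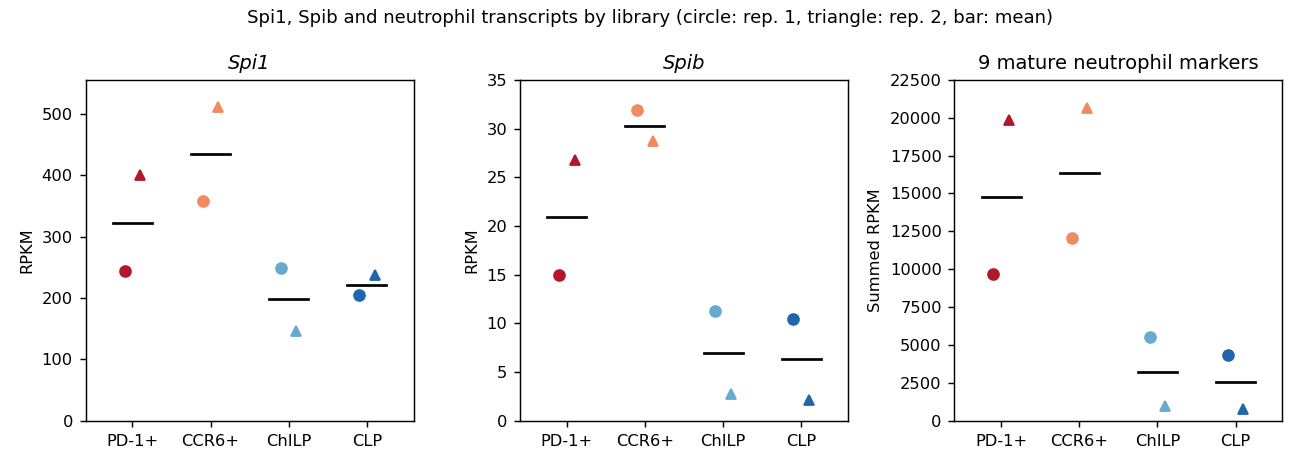
RPKM of Spi1 and of Spib and the summed RPKM of 9 mature neutrophil markers (vertical axes from 0) in each library of PD-1+, CCR6+, ChILP and CLP groups, with circles for replicate 1, triangles for replicate 2 and a bar at the mean. Spib and the marker sum are higher in all PD-1+ and CCR6+ libraries than in any ChILP or CLP library, while Spi1 of PD-1+ replicate 1 (244 RPKM) lies below that of ChILP replicate 1 (249 RPKM).

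Elf4 and Elf1 encode related activators of lymphoid cells; ELF4, also named MEF, acts on perforin and on the quiescence of stem cells and CD8 T cells, and ELF1 acts on T and B cell receptor genes. Elf4 (NM_019680) had 19.0 and 15.9 RPKM in PD-1+ cells, 14.2 and 15.2 RPKM in CCR6+ cells, 7.89 and 12.7 RPKM in ChILP and 9.09 and 9.03 RPKM in CLP. All 4 PD-1+ and CCR6+ libraries lay above all 4 ChILP and CLP libraries. It rose against CLP in PD-1+ cells (log2 fold change 1.21, SE 0.25, edgeR adjusted p = 0.0318) and in CCR6+ cells (1.03, SE 0.25, edgeR adjusted p = 0.0398). It also rose in PD-1+ and CCR6+ cells together against ChILP (0.88, SE 0.23, edgeR adjusted p = 0.0425). The 2 comparisons with CLP share the CLP libraries and are not independent of each other. These calls lie near the threshold: the one against ChILP was lost without any 1 of the 8 libraries, with adjusted p of 0.0503 to 0.229, and limma on log2(RPKM + 1), where the values keep the scaling by library total, called none of the 3 (0.87, 0.64 and 0.62, adjusted p = 0.0695, 0.137 and 0.107). Without either CLP library neither call against CLP held, with adjusted p of 0.0965 to 0.221. The call in PD-1+ cells was also lost without either PD-1+ library or without CCR6+ replicate 2 (adjusted p of 0.05 to 0.0719), and that in CCR6+ cells without either CCR6+ library (0.115 and 0.123). Without both number 2 libraries of the captured groups, the 3 log2 fold changes were 1.22, 1.005 and 0.92 and none was called (adjusted p = 0.0958, 0.115 and 0.0925). Within a route Elf4 differed by 0.18 for PD-1+ against CCR6+ cells (95% interval -0.40 to 0.76) and by 0.24 for ChILP against CLP (-0.34 to 0.82).

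Elf1 (NM_007920) ran the other way by level. It had 35.3 and 21.0 RPKM in PD-1+ cells, 25.6 and 19.2 RPKM in CCR6+ cells, 36.3 and 35.8 RPKM in ChILP and 46.2 and 52.1 RPKM in CLP. By RPKM, all PD-1+ and CCR6+ libraries lay below the ChILP libraries, and these below the CLP libraries. In edgeR the log2 fold change of PD-1+ and CCR6+ cells together against ChILP was only -0.28 and not called. It ran from -0.55 to -0.01 over the alternatives. On the scale of RPKM the median over all genes in that comparison was -0.29. None of its comparisons passed in edgeR: the log2 fold change was -0.80 in CCR6+ cells against CLP (SE 0.25, adjusted p = 0.0778), -0.55 in PD-1+ cells against CLP (SE 0.25, adjusted p = 0.224) and -0.39 in ChILP against CLP (SE 0.25, adjusted p = 0.991). The difference between CCR6+ cells and CLP was called by DESeq2 (adjusted p = 0.0436), by limma on log2(RPKM + 1) (0.0213), and by edgeR without PD-1+ replicate 1 (0.0412) or PD-1+ replicate 2 (0.0384). The ratio of Elf1 to Elf4 RPKM, which is free of the scaling between libraries, was 1.86 and 1.32 in PD-1+ cells, 1.802 and 1.27 in CCR6+ cells, 4.599 and 2.81 in ChILP and 5.08 and 5.77 in CLP. The ratio in every captured library was thus below that in every depleted one, and CLP lay above ChILP.

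Etv6 (NM_007961) encodes a repressor of the family that stem cells need in adult marrow. It had 13.8 and 11.8 RPKM in PD-1+ cells, 6.90 and 10.03 RPKM in CCR6+ cells, 14.8 and 13.7 RPKM in ChILP and 16.5 and 21.6 RPKM in CLP. CLP lay above the other groups and CCR6+ cells below them. Its log2 fold change in CCR6+ cells against CLP was -0.83 (SE 0.23, edgeR adjusted p = 0.0571; called by DESeq2, adjusted p = 0.0328, and by limma on log2(RPKM + 1), 0.0245), and in PD-1+ against CCR6+ cells 0.53 (SE 0.23, unadjusted p = 0.0503, edgeR adjusted p = 0.84). Gabpa (NM_008065) encodes the DNA-binding subunit of GABP, a factor of mitochondrial and housekeeping genes. It had 8.02 and 7.38 RPKM in PD-1+ cells, 4.45 and 6.85 RPKM in CCR6+ cells, 11.5 and 12.03 RPKM in ChILP and 12.6 and 11.2 RPKM in CLP. Captured libraries lay below depleted ones, and CCR6+ cells below PD-1+ cells. Its log2 fold change was -0.59 in PD-1+ and CCR6+ cells together against ChILP (SE 0.23, edgeR adjusted p = 0.136) and -0.74 in CCR6+ cells against CLP (SE 0.27, edgeR adjusted p = 0.122; limma on log2(RPKM + 1) 0.0405), and it was 0.04 in ChILP against CLP (95% interval -0.59 to 0.66).

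Counted by comparison, 0 of the 9 members were called in ChILP against CLP, where 0.022% of all genes tested were called by edgeR's quasi-likelihood test; 1 member had an unadjusted p under 0.05, against 5.82% of all genes, and DESeq2 called 0 members, with 2.01% of all genes. In PD-1+ against CCR6+ cells 0 members were called, with 0% of all genes, 1 member had an unadjusted p under 0.05, against 5.88% of all genes, and DESeq2 called 0 members, with 1.02% of all genes. In PD-1+ cells against CLP 2 members were called, Ets1 and Elf4, with 7.31% of all genes; 4 had an unadjusted p under 0.05, with 24.2% of all genes. In CCR6+ cells against CLP 1 member was called, Elf4, with 11.4% of all genes; 7 had an unadjusted p under 0.05, with 27.5% of all genes. In PD-1+ and CCR6+ cells together against ChILP 1 member was called, Elf4, with 12.2% of all genes; 3 had an unadjusted p under 0.05, with 28.7% of all genes. The test for any difference among the 4 groups called 2 members, Ets1 (adjusted p = 0.0278) and Elf4 (adjusted p = 0.0421), with 9.71% of all genes; 5 had an unadjusted p under 0.05, with 26.2% of all genes. DESeq2 called 3 members in PD-1+ cells against CLP (17.1% of all genes), 6 in CCR6+ cells against CLP (21.6%), 2 in PD-1+ and CCR6+ cells together against ChILP (21.1%) and 4 over the 4 groups (24.1%). Members moved in both directions, with median log2 fold changes of -0.10, 0.27, -0.30, 0.16 and 0.18 in these 5 comparisons, beside medians over all genes of 0.05, 0.01, -0.02, -0.09 and -0.10. On the scale of RPKM the medians over all genes in the comparisons across routes were -0.26 (PD-1+ against CLP), -0.36 (CCR6+ against CLP) and -0.29 (PD-1+ and CCR6+ against ChILP), so that on that scale higher values in captured libraries come out smaller and lower ones larger.

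**Figure D3:**
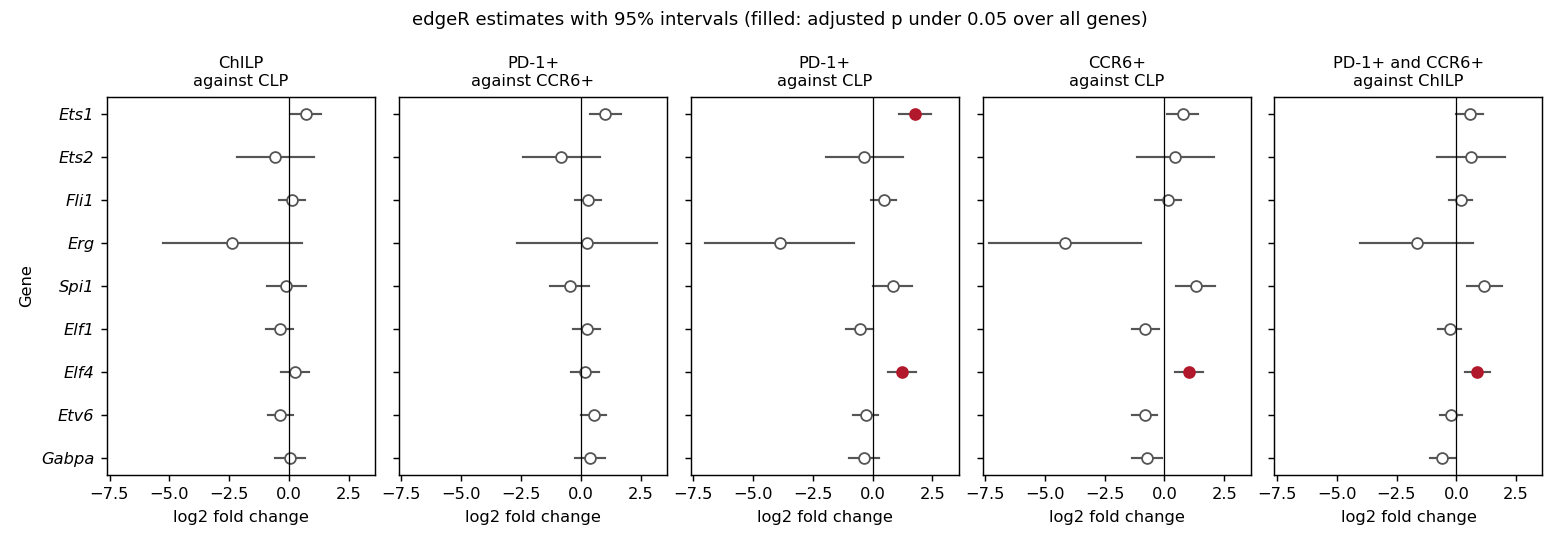
Log2 fold changes (horizontal axes, first-named group over the second) of the 9 members in 5 comparisons, as points with 95% intervals from edgeR; filled points have an adjusted p under 0.05 over all genes. Filled points are Ets1 and Elf4 in PD-1+ against CLP, and Elf4 in CCR6+ against CLP and in PD-1+ and CCR6+ against ChILP, while the Erg intervals are the widest.

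Apart from Spi1, the share of Ets1 among the ETS transcripts differed between groups. Ets1 made up 35.3% and 29.3% of the summed RPKM of the 8 members other than Spi1 in PD-1+ cells, 22.9% and 21.1% in CCR6+ cells, 19.8% and 20.9% in ChILP and 9.58% and 13.1% in CLP. The PD-1+ libraries thus had the highest and the CLP libraries the lowest Ets1 shares. Against Fli1 in the same library, Ets1 stood at 1.49 and 1.38 times its RPKM in PD-1+ cells, 0.877 and 0.886 in CCR6+ cells, 0.891 and 0.850 in ChILP and 0.497 and 0.649 in CLP. The PD-1+ libraries differed little from each other in this ratio although their Ets1 levels were 67.3 and 38.2 RPKM. No test was run on these ratios and shares, which share their libraries.

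**Figure D4:**
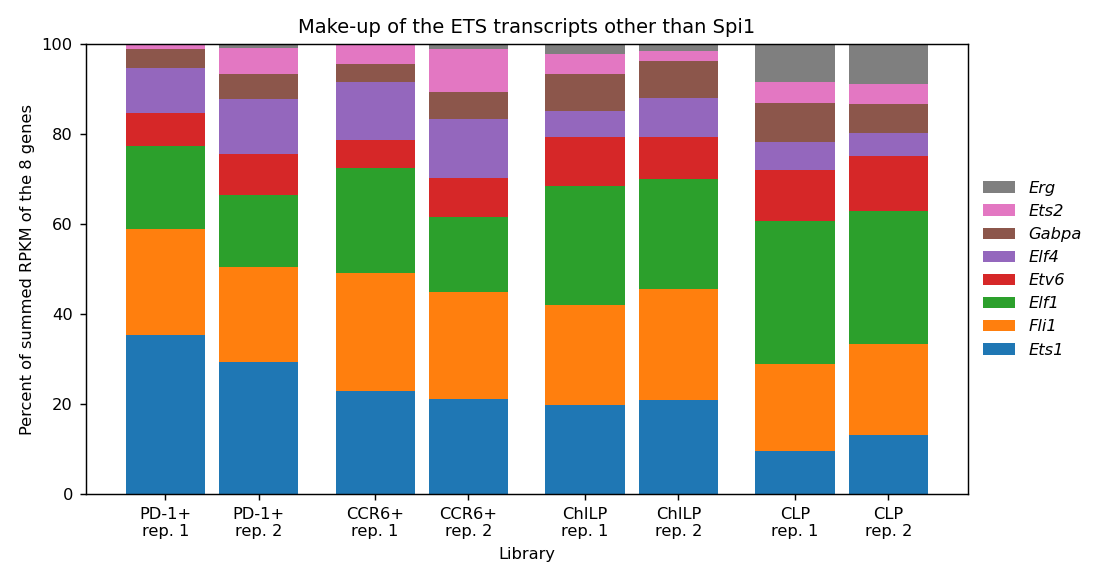
Percent of the summed RPKM (vertical axis) that each of the 8 members other than Spi1 made up in each library (horizontal axis; PD-1+, CCR6+, ChILP and CLP groups, 2 replicates each). The Ets1 segment at the bottom is 29.3% to 35.3% in PD-1+ libraries and 9.58% to 13.1% in CLP libraries, and the Erg segment at the top is visible mainly in CLP.

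Over the 8 libraries, Pearson correlations of log2(RPKM + 1) between members were highest for Etv6 and Gabpa (0.877) and for Erg and Etv6 (0.843), and lowest for Spi1 and Elf1 (-0.801). Among genes with a group mean of at least 10 RPKM, those most like Ets1 were Mdk (0.981), Ctsw (0.952), Chmp1b (0.951), Hmgn3 (0.949) and P2rx7 (0.942). Those most like Spi1 were Mcpt8 (0.978), Ptpn6 (0.976), Klf2 (0.973), Rab32 (0.972) and Itsn1 (0.969). Those most like Erg were Slc35d3 (0.986), Slc30a5 (0.976), Tmem5 (0.969), H2afy (0.968) and Atp6v0a2 (0.966). The libraries share groups and enrichment routes, so these values describe likeness over 8 libraries only.

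Of the 17 other ETS genes found, 11 were tested, and edgeR called none in any comparison, with 0% to 12.2% of all genes called. Those with an unadjusted p under 0.05 were Spib, with the values above, and Etv3, a repressor of the family, which had 7.08 and 5.65 RPKM in PD-1+ cells against 4.78 and 2.79 RPKM in CLP (log2 fold change 0.997, SE 0.43, edgeR adjusted p = 0.203). Elf2, an ELF relative, was the most abundant of them by RPKM in 5 of the 8 libraries, at 19.7 to 45.9 RPKM over the 8.

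Genes listed as partners of ETS proteins, or as regulated by them, were counted from lists chosen for their biology. A place on the partner list does not mean direct binding to an ETS protein. Of 12 partner genes, 2 rose in PD-1+ cells against CLP, with 4.47% of all genes called higher, and none fell. These were Mkl1, a coactivator of serum response factor, at 27.4 and 26.2 RPKM in PD-1+ cells against 14.5 and 15.8 RPKM in CLP, and Jun, an AP-1 subunit, at 464 and 534 RPKM in PD-1+ cells against 220 and 216 RPKM in CLP. In CCR6+ cells against CLP 3 partners rose, with 6.59% of all genes called higher: Mkl1, Jun and Irf8, the interferon regulatory factor that binds beside PU.1. Irf8 had 249 and 273 RPKM in CCR6+ cells against 152 and 189 RPKM in CLP (log2 fold change 0.95, SE 0.25, edgeR adjusted p = 0.0482). The same 3 rose in PD-1+ and CCR6+ cells together against ChILP, with 6.06% of all genes called higher. None of the 12 was called in ChILP against CLP or in PD-1+ against CCR6+ cells, with 0.022% and 0% of all genes called. Irf8 is also among 6 markers of plasmacytoid dendritic cells, which summed to 575 and 782 RPKM in PD-1+ cells, 857 and 865 RPKM in CCR6+ cells, 373 and 389.8 RPKM in ChILP and 711 and 1079 RPKM in CLP, with none at 0. Of these, 3 were called higher in CCR6+ cells against CLP and 4 in PD-1+ and CCR6+ cells together against ChILP, and their part in the Irf8 level was not tested.

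Myeloid genes that PU.1 regulates stood higher in the captured libraries. Of 12, 6 rose in PD-1+ cells against CLP, 8 in CCR6+ cells against CLP and 10 in PD-1+ and CCR6+ cells together against ChILP, beside 4.47%, 6.59% and 6.06% of all genes called higher, and none fell. The medians of their log2 fold changes were 2.10, 2.46 and 2.18. Csf1r, the receptor of macrophage growth factor, had 78.8 and 113 RPKM in PD-1+ cells and 119 and 130 RPKM in CCR6+ cells, against 26.4 and 24.8 RPKM in ChILP and 30.9 and 24.9 RPKM in CLP. Fcgr1, the high-affinity Fc receptor of monocytes, had 17.6 and 19.6 RPKM in PD-1+ cells and 21.3 and 15.3 RPKM in CCR6+ cells, against 0.592 and 0.701 RPKM in ChILP and 0.541 and 1.06 RPKM in CLP. None of the 12 was called within a route, where few genes were called at all. The shares of all genes called were 0.022% in ChILP against CLP and 0% in PD-1+ against CCR6+ cells. The macrophage, monocyte and neutrophil markers above were higher in the same libraries. Csf1r and Fcgr1 are themselves among the macrophage and monocyte markers, and Csf1r is also among the myeloid progenitor markers. The part of such cells in this list was not tested.

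Of 8 lymphoid genes listed as ETS targets, 4 rose and 1 fell in PD-1+ cells against CLP (4.47% of all genes called higher and 2.83% lower), and 4 rose and 1 fell in CCR6+ cells against CLP (6.59% of all genes called higher and 4.79% lower). The fall was that of Flt3, which the sort gate used, and the risers included Id2, the inhibitor of E proteins, at 696 and 226 RPKM in PD-1+ cells, 221 and 164 RPKM in CCR6+ cells and 27.3 and 27.9 RPKM in CLP. Il2rb, a receptor chain for IL-2 and IL-15, had 44.3 and 26.6 RPKM in PD-1+ cells and 33.1 and 26.0 RPKM in CCR6+ cells, against 4.82 and 2.43 RPKM in CLP. In ChILP against CLP only Flt3 was called, lower in ChILP (0.0147% of all genes called lower). In PD-1+ and CCR6+ cells together against ChILP only Cd79a, a B cell receptor subunit, was called, with 6.06% of all genes called higher. It was higher there, as were the B lineage markers above, of which Cd79a is 1. The part of such cells in the Cd79a level was not tested. Among megakaryocyte genes regulated by FLI1 and ERG, Pf4 and Itga2b fell in PD-1+ and CCR6+ cells together against ChILP, with 6.19% of all genes called lower. Pf4, a chemokine of platelet granules, had 171 and 71.2 RPKM in PD-1+ cells and 100.5 and 219 RPKM in CCR6+ cells, against 701 and 415 RPKM in ChILP (log2 fold change -1.77, SE 0.39, edgeR adjusted p = 0.0271). Itga2b, the integrin αIIb chain of platelets, had 15.5 and 11.4 RPKM in PD-1+ cells and 18.9 and 23.9 RPKM in CCR6+ cells, against 128 and 37.8 RPKM in ChILP (log2 fold change -2.04, SE 0.46, edgeR adjusted p = 0.0285). In both genes all captured libraries lay below both ChILP libraries. Summed megakaryocyte markers, some of them among these genes, stood at 216 and 139 RPKM in PD-1+ cells, 186 and 439 RPKM in CCR6+ cells, 1687 and 611 RPKM in ChILP and 632 and 436 RPKM in CLP, and the part of such cells was not tested. Of 8 mitochondrial genes regulated by GABP, Atp5b, a subunit of ATP synthase, fell in PD-1+ and CCR6+ cells together against ChILP (log2 fold change -0.67, SE 0.15, edgeR adjusted p = 0.0271) and no other was called in any comparison. It had 514 and 475 RPKM in PD-1+ cells and 533 and 490 RPKM in CCR6+ cells, against 894 and 999 RPKM in ChILP. All 8 had a negative log2 fold change there, with a median of -0.61 beside -0.10 over all genes. Gabpa itself had -0.59 and was not called (edgeR adjusted p = 0.136). The part of Gabpa or of other cell types in these levels was not tested.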

How the data were processed

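For every library the authors deposited whole-number read counts and RPKM values of 29257 RefSeq transcripts (RPKM being the count over transcript length and library total). CASAVA 1.8.4, Bowtie2 2.2.2 and mouse build mm9 were used, per the submitters' processing notes; counter, strand setting and treatment of shared reads: not given in the sources used here, so reads of overlapping or antisense genes cannot be told apart. Smart-seq2 amplifies before sequencing and no molecular identifiers were used here, so intervals and floors on reads cover counting error only.

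For each gene the transcript with the most reads on average was used. The test was the two-sided robust quasi-likelihood F test of edgeR 4.0.16 (R 4.3.3) on counts scaled by TMM, after filterByExpr at 10 counts, with all 8 libraries in 1 fit, with Benjamini-Hochberg adjustment over 13619 genes and calls at an adjusted p under 0.05. The fit had a common biological coefficient of variation of 0.526 and 4 residual degrees of freedom. Levels are the deposited RPKM. The scripts were tested on simulated data.

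The members and gene lists were chosen with earlier results of these data known. The text names the 9 members, other ETS genes with an unadjusted p under 0.05, at most 4 genes per other list by lowest p, and the 5 genes most like Ets1, Spi1 and Erg; Elf2 was added after its values were seen. Another gene that this rule names is not reported here. Alternatives were DESeq2 1.42.0 (size factors and test, a likelihood ratio test over the 4 groups), limma 3.58.1 on log2 RPKM (pseudocounts 1 and 0.1, genes reaching 1 RPKM in at least 2 libraries), testing every gene with a read, testing genes that reach 5 RPKM in 2 libraries, fitting the compared groups alone, a replicate block, the longest transcript and leaving out each library in turn; a lone library is then assumed to vary like the other groups. Omitting replicate 2 of both captured groups, both number 1 libraries of ChILP and CLP, and a crossed block were chosen after seeing the data.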

Additional observations from a re-analysis of the deposited data

How the results depend on the processing

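With 2 libraries per group, few degrees of freedom and calls close to the threshold, the counts of members called depend on the setting. No member was called in ChILP against CLP or in PD-1+ against CCR6+ cells under any alternative, 0 to 0 leaving out each library in turn. In PD-1+ cells against CLP the count of 2 was 0 with only the libraries compared and without both number 1 libraries of ChILP and CLP, and 0 to 3 leaving out 1 library in turn. In CCR6+ cells against CLP the count of 1 was 2 with DESeq2 size factors, no filter or only the libraries compared, 3 with 5 RPKM in 2 libraries, 4 with limma at either pseudocount, 6 with DESeq2, 0 without both number 1 libraries and 0 to 3 leaving out 1 library in turn. In PD-1+ and CCR6+ cells against ChILP the count of 1 was 2 with DESeq2, its size factors, no filter or 5 RPKM in 2 libraries, 0 with only the libraries compared or without both number 1 libraries, and 0 to 1 leaving out 1 library in turn. Over all 4 groups the count of 2 was 4 with DESeq2, 1 with limma on log2(RPKM + 0.1), 1 without both number 2 captured libraries (PD-1+, CCR6+), 0 without both number 1 libraries of ChILP and CLP, and 0 to 2 leaving out 1 library in turn. Fewer samples leave fewer degrees of freedom; for the other settings the cause was not tested.

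Replicate numbers were not shown to pair libraries: deviations of same-numbered libraries correlated at 0.124 for PD-1+ and CCR6+ cells, 0.148 for ChILP and CLP, and -0.202 to 0.0294 across routes. With the replicate block the counts were 1 in PD-1+ against CLP and 0 in CCR6+ against CLP, in PD-1+ and CCR6+ against ChILP and over the 4 groups. With the numbers of PD-1+ and CCR6+ libraries exchanged in the block, the counts were 2, 4, 2 and 3 in that order.

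Log2 fold changes changed sign in 22 cases, all of values not called. In ChILP against CLP, Gabpa was -0.0115 and -0.0122 with limma, -0.0087 without both number 2 captured libraries, and -0.113 to 0.20 leaving out 1 library in turn (-0.003 without ChILP replicate 2, -0.0086 without PD-1+ replicate 1). There, leaving out 1 library gave Fli1 -0.0114 to 0.25, Spi1 -0.54 to 0.23 and Elf4 -0.15 to 0.54, each changing sign without ChILP replicate 2. In PD-1+ against CCR6+ cells it gave Fli1 -0.0368 to 0.55, Elf1 -0.11 to 0.52 and Erg -0.86 to 7.77; the last is a fitted value against the CCR6+ library with no read, depends on the prior count and is no bound, and Erg was -0.69 without CCR6+ replicate 1. Ets2 ran from -1.83 to 0.37 in PD-1+ against CLP, -0.27 to 0.94 in CCR6+ against CLP and -0.12 to 1.04 in PD-1+ and CCR6+ against ChILP, and was -0.26 and -0.46 in the last 2 without both number 2 captured libraries. Fli1 with limma was -0.17 at both pseudocounts in CCR6+ against CLP, and -0.0718 and -0.0744 in PD-1+ and CCR6+ against ChILP.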
